A study of Mus musculus with 8 samples.

Results

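The complement and coagulation factors described here are 43 genes, 20 of complement and 23 of coagulation and fibrinolysis, measured in mouse primary hepatocytes with and without transglutaminase 2. A gene was represented by the probe set whose platform annotation gave its symbol alone, and by the brightest of these over all arrays where there were several. Of the 43 genes, 39 had such a probe set and 38 lay in the brighter 50% of probe sets that were tested, out of 10529 genes tested in all. The complement C5a receptor C5ar1 lay below that limit, at normalised intensities of 2.41 to 22.6. C1r, C3, C4b and Cpb2 had no probe set of their own symbol alone and were not analysed here.

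Most plasma complement and clotting proteins are made and secreted by hepatocytes. Complement is a cascade of proteases that is started by antibody or by lectins binding to sugars, passes through convertases, and ends in a pore of the terminal components in the target membrane. Clotting starts when tissue factor meets factor VII, runs through factors X and V to thrombin and fibrin, and is held in check by antithrombin and other inhibitors, while plasmin dissolves the clot. Fibrinogen, several clotting factors and some complement components are acute phase proteins, whose synthesis in liver changes in inflammation.

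The cells were primary hepatocytes from mice of a mixed C57BL6/129SVJ background, either wild type (WT) or knockout for transglutaminase 2 (KO), a protein-crosslinking enzyme encoded by Tgm2. They were kept for 15 h without ethanol (0 mM) or with 100 mM ethanol, and each of the 4 groups had 2 arrays, named A and B in the sample titles. The study's title concerns the crosslinking and silencing of the transcription factor Sp1 by this enzyme in liver injury. The labels do not say whether A and B came from separate animals or cultures, so p-values cover only the spread between arrays, which may be technical, and they do not say which part of Tgm2 was deleted. One conflict in the labels matters: 2 of the 4 arrays titled as 100 mM, the B arrays, have a treatment note like that of the control cells. Groups follow the titles, and results under another reading are given beside the ethanol comparisons.

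Intensities were quantile normalised, which gives all arrays the same distribution, and compared as log2(intensity + 16) with limma. A gene was called at a Benjamini-Hochberg adjusted p under 0.05 over all 19814 probe sets, and ± stands for the standard error (SE) of a log2 difference, with n = 2 arrays per group. Intensities of different probe sets cannot be compared with each other. Tgm2 lay at 16700 to 16800 on the WT arrays and at 368 to 704 on the KO arrays. Before normalisation both untreated KO arrays and ethanol KO A were dimmer (trimmed means 113 to 117) than the other 5 arrays (228 to 341). The summed intensity of 9 measured hepatocyte markers was 61500 to 66900 on every array. Most of that sum came from Alb, Ttr, Apoa1 and Cyp2e1, and quantile normalisation limits how far such bright values can differ between arrays. In untreated KO 4 of the 9 were called higher and 4 lower, against 15.1% and 21.2% of all genes. Hnf4a, a hepatocyte transcription factor, was 1150 and 1200 in WT against 467 and 430 in KO without ethanol, and 1590 and 1650 in WT against 820 and 704 in KO with it. The 13 macrophage and Kupffer cell markers summed to 5120 and 5470 in WT against 6170 and 6220 in KO without ethanol, and 7020 and 7240 in WT against 8920 and 8340 in KO with it. Most of that sum came from Cd14. Cd68 was 411 and 450 in untreated WT against 1260 and 1240 in untreated KO, whereas Marco, Csf1r and Lyz2 were called lower there, and the Kupffer cell markers Clec4f and Vsig4 were dim. The 4 measured cholangiocyte markers summed to 312 to 460 in WT and 768 to 1120 in KO, mostly through Sox9. Without ethanol Krt19 was 49.6 and 49 in WT against 40.9 and 24.9 in KO, and Epcam 122 and 45.7 against 25.4 and 45.2. Krt7 was dim. The part of these shifts in the results below was not tested, and fewer cells of a type cannot be told apart from less RNA per cell.

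Without ethanol, more members were lower than higher in KO than in WT, but this balance depended on the scaling of the brightest probe sets. Of the 38 tested members, 4 were higher in KO, where 15.1% of all genes were called higher, and 19 were lower, where 21.2% of all genes were called lower. The members' median log2 difference was -0.23, against -0.092 for all genes tested. Under scaling of each array to a common trimmed mean, which keeps the shape of each array's distribution, 9 members were higher and 11 lower, where 16.1% and 21.8% of all genes were called, and the members' median of -0.023 lay above that of all genes, -0.096. The change lay in the bright probe sets: for the 8 members with a mean intensity of at least 7000, the difference rose by a median of 0.45 on the log2 scale and 7 of the 8 changed sign, while for the 19 members under 2000 the median shift was -0.025. The calls for C1s1, F5, C8b, Masp2, Mbl1 and Serpinf2 held under each of the 21 alternatives run. Leaving out 1 array, most often an untreated one, ended 11 of the 23 calls, those of C6, C8g, Cfi, Masp1, F2, F7, F9, F11, Fgb, Serpind1 and Hrg, with adjusted p then between 0.052 and 0.25.

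**Figure D1:**
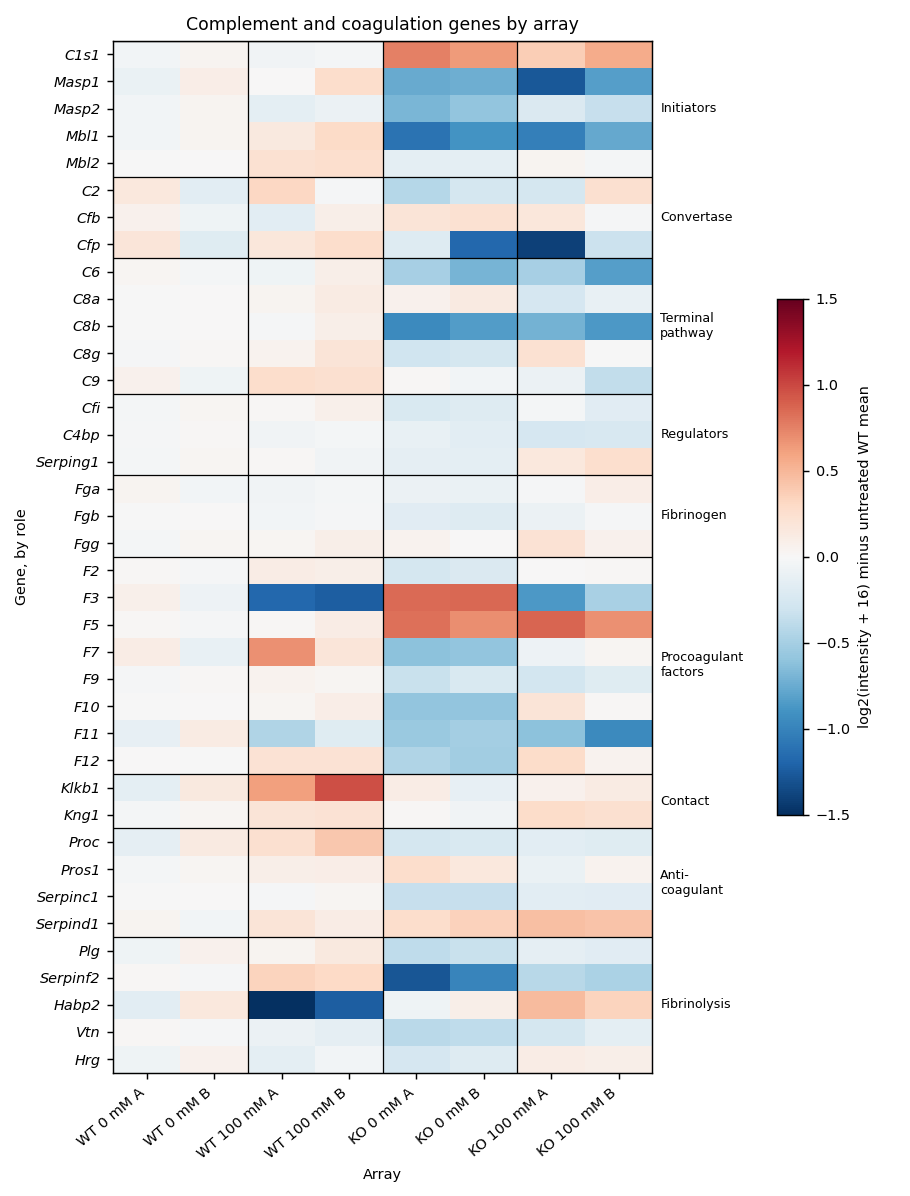
Heat map of log2(intensity + 16) for the 38 tested members (rows, grouped by role) on the 8 arrays (columns), as the difference from the mean of the 2 untreated WT arrays (red higher, blue lower, colours capped at 1.5). C1s1, F3 and F5 are red and Mbl1, C8b and Serpinf2 blue on both untreated KO arrays. F3 is blue on all 4 ethanol arrays, and Habp2 is dark blue on both ethanol WT arrays.

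Of the 5 tested proteins that start complement, Mbl1, Masp1 and Masp2 of the lectin pathway were lower in untreated KO, C1s1 of the classical pathway was higher, and the lectin Mbl2 was not called. Mbl1, a mannose-binding lectin that recognises microbial sugars, had normalised intensities of 820 and 875 in WT against 385 and 447 in KO without ethanol, and 937 and 1030 in WT against 407 and 491 in KO with it. All 4 KO arrays lay below all 4 WT arrays, with a log2 difference of -1.0 ± 0.12 at 0 mM and -1.11 ± 0.12 at 100 mM (limma, adjusted p = 0.00029 and 0.00018). Mbl2, the other mannose-binding lectin, differed by -0.15 without ethanol (adjusted p = 0.11) and was lower in KO with ethanol, by -0.23 (0.023).

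Masp1 and Masp2 encode the proteases that travel with these lectins. Masp1 was 591 and 677 in WT against 368 and 375 in KO without ethanol, and 635 and 762 in WT against 253 and 350 in KO with it. The groups did not overlap at either dose, with differences of -0.74 ± 0.16 and -1.18 ± 0.16 (adjusted p = 0.006 and 0.00059). The untreated call was lost without untreated WT B (adjusted p = 0.052) and the ethanol one in the mean over the gene's probe sets (-0.53, adjusted p = 0.081). Masp2, which cleaves C4 and C2, was 793 and 844 in untreated WT and 504 and 537 in untreated KO, a difference of -0.64 ± 0.095 (adjusted p = 0.00092). With ethanol it was 736 and 766 in WT and 703 and 641 in KO, and was not called on this probe set (-0.16, adjusted p = 0.25). Its dimmer probe set was called in both comparisons, at -0.76 and -0.87 (adjusted p = 0.015 and 0.009).

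C1s1 encodes a C1s protease of the classical pathway. It was 1090 and 1150 in WT against 1900 and 1750 in KO without ethanol, and 1080 and 1090 in WT against 1450 and 1650 in KO with it. The 4 KO arrays lay above the 4 WT arrays, by 0.69 ± 0.089 in untreated and 0.50 ± 0.089 in ethanol-treated cells (adjusted p = 4e-04 and 0.0027). Of the 3 convertase components measured, none was called by limma in any comparison, and 1 difference had an unadjusted p under 0.05: factor B (Cfb) differed by 0.21 (adjusted p = 0.13) in untreated KO, C2 by -0.34 (0.19) and properdin (Cfp), a dim probe set, by -0.69 (0.27) there and by -1.08 (0.098) with ethanol. Under trimmed-mean scaling Cfb was called higher in untreated KO, by 0.47, and lower with ethanol in KO, by -0.39 (adjusted p = 0.017 and 0.047).

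Of the 5 terminal components, which form the membrane pore, 3 were called lower in untreated KO and 4 in ethanol KO, against matching WT. Of all genes, 21.2% and 17.7% were called lower there. Under trimmed-mean scaling 2 and 4 were lower, where 21.8% and 16.8% of all genes were called lower. C8b, the C8 beta chain, was 1230 and 1240 in WT against 629 and 682 in KO without ethanol, and 1220 and 1320 in WT against 751 and 670 in KO with it. The log2 differences were -0.90 ± 0.094 and -0.82 ± 0.094 (adjusted p = 0.00012 and 0.00023). C8a, the alpha chain, whose gene lies next to C8b without another coding gene between them in the RefSeq annotation of GRCm38.p6, did not show this: it was 1930 and 1940 in untreated WT, and 2020 and 2120 in untreated KO (0.098, adjusted p = 0.39). With ethanol C8a was 1980 and 2120 in WT and 1620 and 1790 in KO. It was called lower there by -0.27 ± 0.079 (adjusted p = 0.031), a call lost under 12 of 21 alternatives.

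The other terminal components were C6, C8g and C9. C6 was 352 and 335 in untreated WT and 238 and 206 in untreated KO, and 327 and 367 against 239 and 187 with ethanol, a difference of -0.60 and -0.67 ± 0.15 (adjusted p = 0.014 and 0.0091). C9, which polymerises into the pore, was not called without ethanol (-0.013, adjusted p = 0.94) and was lower in KO with ethanol, at 2990 and 2460 against 3830 and 3760 (-0.48 ± 0.095, adjusted p = 0.0047). The gamma chain C8g was lower in untreated KO by -0.28, a call lost under trimmed-mean scaling (-0.16, adjusted p = 0.3). Among the regulators, Cfi, the protease that inactivates C3b and C4b, was lower in untreated KO by -0.21, also lost under trimmed-mean scaling (-0.011). C4bp, its cofactor, was -0.14 and -0.21 and was not called. Under trimmed-mean scaling C4bp was called lower in KO with ethanol (-0.27, adjusted p = 0.036). The C1 inhibitor gene Serping1 was not called without ethanol (-0.14) and was higher in KO with ethanol (0.23, adjusted p = 0.027), which trimmed-mean scaling did not keep (0.16, adjusted p = 0.18).

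In the clotting cascade all 8 procoagulant factors were called in untreated KO, with tissue factor and factor V higher and the other 6 lower. Of all genes, 15.1% were called higher and 21.2% lower there. Under trimmed-mean scaling prothrombin (F2) turned to 0.15 and was not called. F3, tissue factor, the membrane receptor that starts clotting, was 1200 and 1070 in untreated WT and 2060 and 2070 in untreated KO. Both KO arrays lay above both WT arrays (0.86 ± 0.12, adjusted p = 0.00071). With ethanol F3 was 492 and 471 in WT and 619 and 808 in KO, again higher in KO (0.54 ± 0.12, adjusted p = 0.0094), a call lost without ethanol WT B. F5, factor V, the cofactor of factor X, was 619 and 609 in WT against 1110 and 1000 in KO without ethanol, and 622 and 664 in WT against 1140 and 995 in KO with it. All KO arrays lay above all WT arrays, by 0.76 ± 0.10 and 0.71 ± 0.10 (adjusted p = 0.00043 and 0.00074).

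The factors that were lower in untreated KO were the precursors of the serine proteases of the cascade. F10, factor X, was 2660 on both WT arrays and 1750 on both KO arrays (-0.60 ± 0.077, adjusted p = 0.00039). Its 2 dimmer probe sets did not show this (-0.05 and 0.13, not called), and the call was lost in the mean over the gene's probe sets (-0.17, adjusted p = 0.22). F7, factor VII, the partner of tissue factor, was 823 and 707 in WT and 494 and 501 in KO (-0.60 ± 0.15, adjusted p = 0.015). F7 and F10 are adjacent coding genes in the RefSeq annotation. F12, factor XII of the contact system, was 2300 and 2280 in WT and 1670 and 1590 in KO (-0.49 ± 0.085, adjusted p = 0.0021). F11, which factor XII activates, was 451 and 539 in WT and 330 and 342 in KO (-0.53 ± 0.15, adjusted p = 0.026). F9, factor IX, was lower by -0.28 ± 0.078 (adjusted p = 0.02), and F2 by -0.24 under quantile normalisation alone. With ethanol the procoagulant factors counted 2 higher and 3 lower of 8 in KO. Of all genes, 12.3% were called higher and 17.7% lower there. F7 was lower by -0.46, F9 by -0.27 and F11 by -0.47 (adjusted p = 0.048, 0.03 and 0.046). F10 (0.041), F12 (-0.055) and F2 (-0.089) were not called there.

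**Figure D2:**
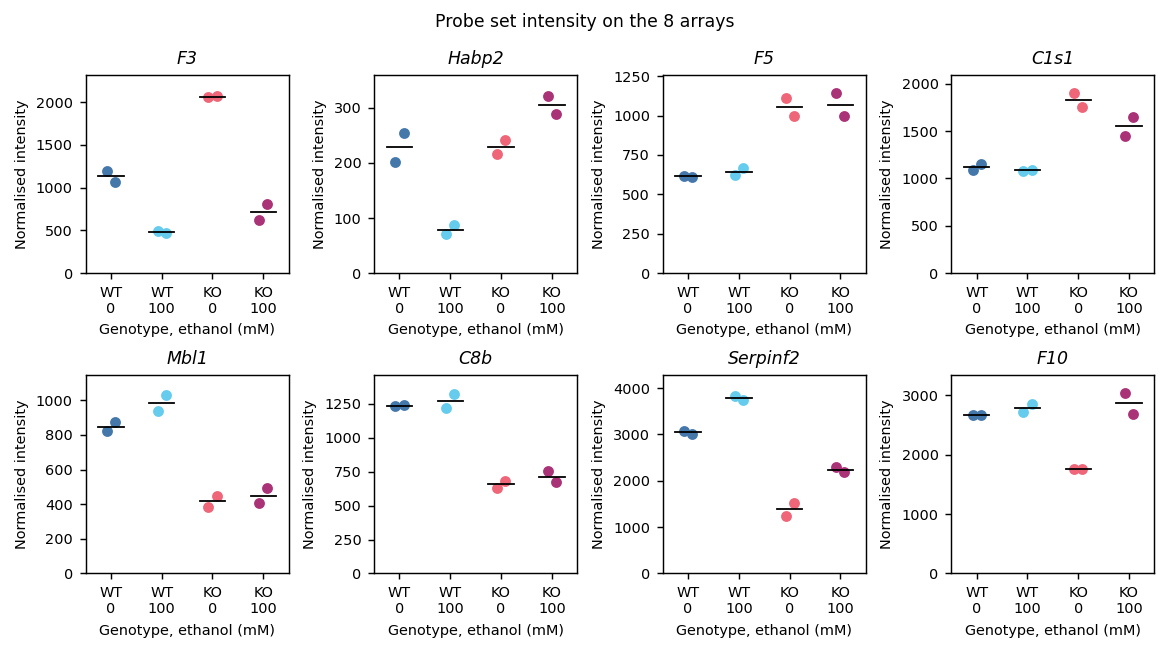
Normalised intensity (vertical axes, linear from 0) of the probe sets for F3, Habp2, F5, C1s1, Mbl1, C8b, Serpinf2 and F10 in each genotype and ethanol dose. Points are the 2 arrays of a group, A on the left, and black lines their mean. F5 and C1s1 are higher and Mbl1, C8b and Serpinf2 lower on all KO arrays than on all WT arrays, F3 is lower with ethanol in both genotypes, and Habp2 is lowest in ethanol WT, at 70.4 and 86.9.

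The inhibitors and the fibrinolytic proteins contained the lowest difference among members in untreated KO. Serpinf2, alpha-2-antiplasmin, the main inhibitor of plasmin, was 3070 and 3020 in WT against 1240 and 1530 in KO without ethanol, and 3840 and 3740 in WT against 2290 and 2190 in KO with it. All KO arrays were below all WT arrays, by -1.14 ± 0.095 in untreated and -0.76 ± 0.095 in ethanol-treated cells (adjusted p = 3.7e-05 and 0.00041). Serpind1, heparin cofactor II, an inhibitor of thrombin, was 696 and 661 in untreated WT and 817 and 867 in untreated KO (0.31 ± 0.087, adjusted p = 0.024), and higher with ethanol by 0.29 (0.035, not called under trimmed-mean scaling). Proc, protein C, which inactivates factor V, was not called without ethanol (-0.24, adjusted p = 0.085), and with ethanol was 2630 and 2940 in WT against 2000 and 1960 in KO (-0.49 ± 0.098, adjusted p = 0.0052), a call lost without ethanol WT B. Its cofactor protein S, Pros1, was 0.21 and -0.12 and was not called. Klkb1, plasma prekallikrein, was not called without ethanol (-0.0041) and was lower in KO with ethanol (258 and 333 against 170 and 179, -0.70 ± 0.18, adjusted p = 0.017), which again ended without ethanol WT B.

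The 8 brightest members, the fibrinogen chains Fga, Fgb and Fgg, prothrombin F2, plasminogen Plg, antithrombin Serpinc1, kininogen Kng1 and vitronectin Vtn, had a KO difference that could not be settled without ethanol. Under quantile normalisation Fga differed by -0.094, Fgb by -0.18, Fgg by 0.031, F2 by -0.24, Plg by -0.35, Serpinc1 by -0.35, Kng1 by -0.017 and Vtn by -0.39, with Fgb, F2, Plg, Serpinc1 and Vtn called lower. Under trimmed-mean scaling the same differences were 0.65, 0.56, 0.56, 0.15, 0.031, 0.14, 0.41 and 0.026, with the 3 fibrinogen chains and Kng1 called higher. Second probe sets, under quantile normalisation, gave 0.27 for Kng1 (called higher, adjusted p = 0.012) and -0.026 for Vtn (not called, 0.78). For Fga the trimmed-mean intensities were 13200 and 11700 in untreated WT, 19600 and 19400 in untreated KO, 17100 on ethanol KO A and 12400 on ethanol KO B, so the 3 dimmer arrays held the highest values. On quantile-normalised intensities Fga was 14100 and 13300 in untreated WT, and 12900 and 12800 in untreated KO. With ethanol, Plg (-0.25) and Serpinc1 (-0.17) were called lower in KO, neither under trimmed-mean scaling. Hrg, histidine-rich glycoprotein, which binds plasminogen, was lower in untreated KO by -0.22 and lost that call under trimmed-mean scaling (-0.048).

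**Figure D3:**
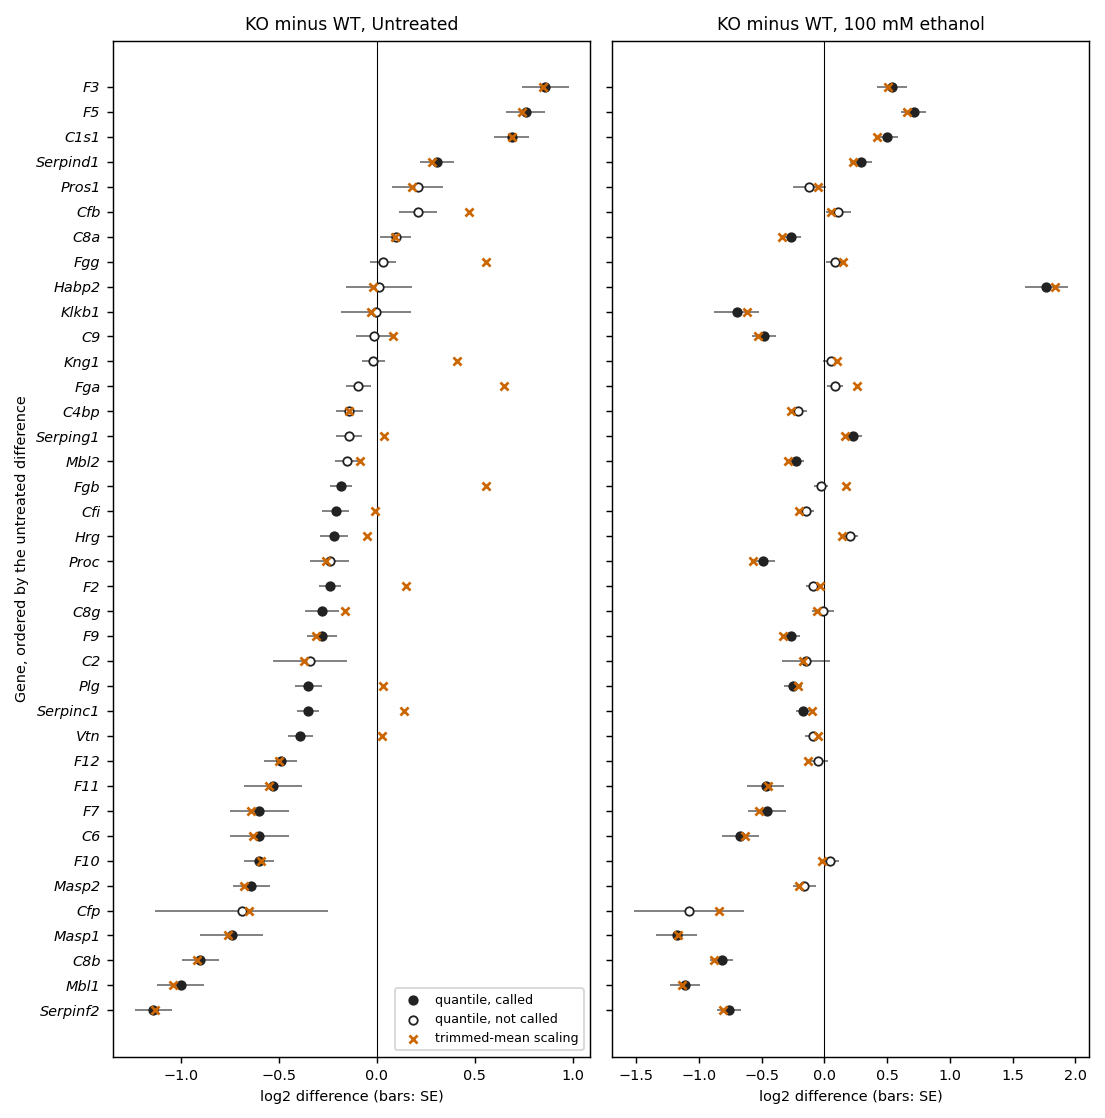
Log2 difference KO minus WT (horizontal axes) for each tested member (rows, ordered by the untreated difference), without ethanol on the left and with 100 mM ethanol on the right. Circles are quantile-normalised estimates with SE bars, filled where called, and crosses are estimates under trimmed-mean scaling. Circles and crosses lie together for Serpinf2, Mbl1 and C8b and far apart without ethanol for Fga (-0.094 and 0.65) and Fgb (-0.18 and 0.56), which change sign.

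**Figure D4:**
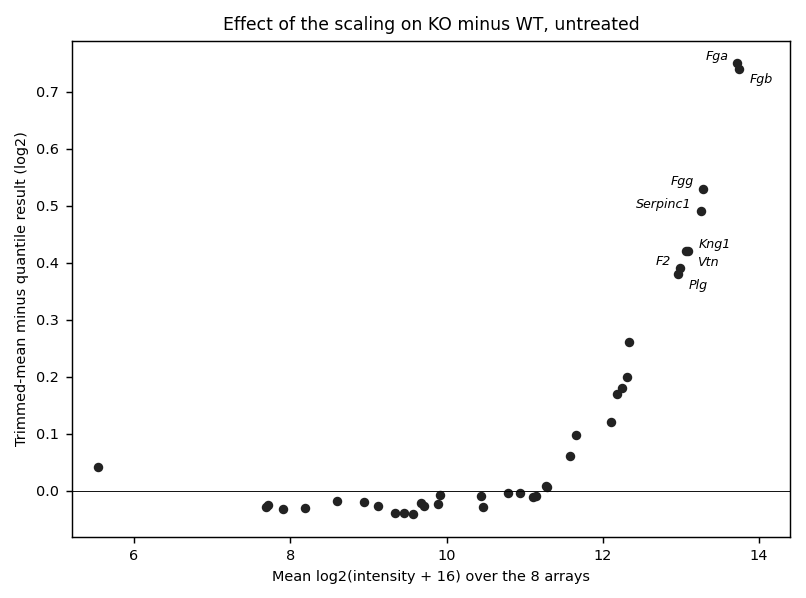
Trimmed-mean minus quantile result for KO minus WT without ethanol (vertical axis, log2) against the mean log2(intensity + 16) over the 8 arrays (horizontal axis), 1 point per tested member. The 8 labelled members with mean intensities of at least 7000 have shifts of 0.38 to 0.75, and the 19 members under 2000 have shifts of -0.041 to 0.042.

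The promoters of 4 called members are shown, F3 and F5 (higher in KO) and Mbl1 and Serpinf2 (lower), because the study concerns Sp1, which binds GC boxes. The choice did not follow size alone. Habp2 (1.77 with ethanol), Masp1 (-1.18 with ethanol) and C8b (-0.90 without) had larger differences than F3 and F5 and are not shown. C1s1, higher in KO by 0.69 without ethanol and without a GC box, is not shown either. Each promoter is the 250 bases before the RefSeq transcription start in GRCm38.p6, on the strand of the gene, with motif matches in capitals. F3 lies at chr3:121723287-121723536 on the plus strand, F5 at chr1:164151585-164151834 on the plus strand, Mbl1 at chr14:41151206-41151455 on the plus strand, and Serpinf2 at chr11:75439502-75439751 on the minus strand.
F3: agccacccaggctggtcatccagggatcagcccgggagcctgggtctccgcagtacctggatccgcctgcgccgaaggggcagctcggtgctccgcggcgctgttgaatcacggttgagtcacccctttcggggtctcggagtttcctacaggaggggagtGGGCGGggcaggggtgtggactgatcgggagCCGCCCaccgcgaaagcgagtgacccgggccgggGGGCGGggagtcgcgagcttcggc
F5: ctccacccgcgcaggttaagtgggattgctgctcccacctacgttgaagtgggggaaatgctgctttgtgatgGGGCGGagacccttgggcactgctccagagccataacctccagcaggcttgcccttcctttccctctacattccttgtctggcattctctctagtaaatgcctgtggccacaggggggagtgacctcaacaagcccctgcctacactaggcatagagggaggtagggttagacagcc
Mbl1: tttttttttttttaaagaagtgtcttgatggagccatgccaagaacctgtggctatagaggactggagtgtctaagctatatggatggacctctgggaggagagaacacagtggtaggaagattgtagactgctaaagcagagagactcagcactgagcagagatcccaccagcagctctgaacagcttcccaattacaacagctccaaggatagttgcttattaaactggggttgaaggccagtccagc
Serpinf2: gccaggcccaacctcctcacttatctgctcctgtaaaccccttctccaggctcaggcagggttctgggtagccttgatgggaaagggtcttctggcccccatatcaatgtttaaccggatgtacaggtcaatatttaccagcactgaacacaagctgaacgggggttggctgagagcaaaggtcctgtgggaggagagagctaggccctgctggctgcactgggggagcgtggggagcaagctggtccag
The capitals in F3 are 3 GC boxes, at 89 to 84, 58 to 53 and 24 to 19 bases before the start, and in F5 they are 1 GC box at 177 to 172 bases. Mbl1 and Serpinf2 held none of the 6 motifs searched.

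Motifs were searched on both strands in 30 tested members that had a promoter in the RefSeq table, at the start the table lists, and in all 32851 promoters of the table. The GC box (GGGCGG) was found in F3, F5 and Pros1, or 10% of these members, against 32.7% of all promoters. C1s1, which was also higher in KO, held no GC box, and a link between this motif and the KO difference was not tested. The C/EBP motif (TTGCNNAA) was found in 9 members (30%, against 9.56%), the STAT motif (TTCNNNGAA) in 6 (20%, against 7.02%), the NF-kB motif (GGGANNTTC) in 2 (6.67%, against 3.23%) and the HNF1 motif (GTTAATNAT) in C4bp, Fga and Habp2 (10%, against 0.737%). The HNF4 motif (CAAAGTCCA) was found in none, against 0.384% of all promoters. A match is a description of these letters and not a binding site.

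With ethanol present, KO differed from WT at 21 of the 38 members. Of these 6 were higher, where 12.3% of all genes were called higher, and 15 lower, where 17.7% of all genes were called lower. The median difference was -0.15, against -0.079 for all genes. Trimmed-mean scaling gave 4 higher and 14 lower, where 12.4% and 16.8% of all genes were called, with a median of -0.15 against -0.0041 for all genes. The call count fell without ethanol WT B, and with both B ethanol arrays taken as untreated. These settings left 1 array in a group that was compared. This comparison shares no array with the untreated one, but both rest on 1 normalisation and 1 estimate of the spread over all 8 arrays. Of the calls with ethanol present, F5 and Mbl1 held under each of the 21 alternatives. Leaving out 1 array ended 13 of the 21 calls (adjusted p between 0.054 and 0.33) and kept those of C1s1, C8b, C9, Masp1, Mbl1, F5, Serpinf2 and Habp2.

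In WT cells ethanol was followed by 3 calls among the 38 members. One member was higher, where 2.34% of all genes were called higher, and 2 were lower, where 2.53% were called lower. F3 fell from 1200 and 1070 to 492 and 471 (-1.21 ± 0.12, adjusted p = 9e-04). Habp2, a plasma protease that activates factor VII and urokinase, fell from 202 and 254 to 70.4 and 86.9 (-1.36 ± 0.17, adjusted p = 0.0021). Its dimmer probe set, at 26.3 to 57.8 on the 8 arrays, was not called and had the other sign (0.62, adjusted p = 0.29), and in the mean of both probe sets the call was lost (-0.37). Klkb1 rose from 145 and 182 to 258 and 333 (0.79 ± 0.18, adjusted p = 0.035), a call lost under 11 of 21 alternatives. None of the 16 complement members tested was called by limma (differences of -0.12 to 0.25), where 2 had an unadjusted p under 0.05, both higher.

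In KO cells 13 of the 38 members were called with ethanol under quantile normalisation. Of these 11 were higher, where 14.2% of all genes were called higher, and 2 lower, where 10.1% were called lower, and the median was 0.12, against 0.041 for all genes. Trimmed-mean scaling gave 5 higher and 4 lower, where 15.1% and 11.1% of all genes were called, with a median of -0.024 against 0.096 for all genes. All 8 members with mean intensities of at least 7000 changed sign between the scalings. Leaving out 1 array ended 9 of the 13 calls (adjusted p between 0.051 and 0.2), all but those of F3, F10, F12 and Serpinf2. F3 fell from 2060 and 2070 to 619 and 808 (-1.52 ± 0.12, adjusted p = 0.00024). The 4 ethanol arrays of both genotypes lay below the 4 untreated ones for F3, and the difference between the genotypes' responses was -0.32 ± 0.17 and not called (adjusted p = 0.31).

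Several genes that were lower in untreated KO rose with ethanol in KO. F10 rose from 1750 on both arrays to 3030 and 2690 (0.70 ± 0.077, adjusted p = 0.00063), F12 from 1670 and 1590 to 2790 and 2370 (0.65 ± 0.085, adjusted p = 0.0012), and Serpinf2 from 1240 and 1530 to 2290 and 2190 (0.69 ± 0.095, adjusted p = 0.0016). F7 rose by 0.57 ± 0.15 (adjusted p = 0.026) and Masp2 by 0.36 ± 0.095 (0.026). The dimmer Masp2 probe set was at -0.2 (adjusted p = 0.48), and the Masp2 call was lost in the mean over its probe sets. The untreated KO arrays enter both comparisons, so these rises and the untreated KO difference are not independent of each other. In WT the ethanol differences were 0.061 for F10, 0.22 for F12, 0.31 for Serpinf2, 0.44 for F7 and -0.12 for Masp2, none called. The difference between the genotypes' responses was not called for F12 (0.43), Serpinf2 (0.38), F7 (0.14) or Masp2 (0.48). The ethanol KO level of F10 (3030 and 2690) was close to that of ethanol WT (2710 and 2850), whereas Serpinf2 stayed below it (2290 and 2190 against 3840 and 3740). The rises of C8g (0.39), Serping1 (0.35) and Hrg (0.32) were not called under trimmed-mean scaling (0.27, 0.16 and 0.15), and those of F2 (0.25), Serpinc1 (0.18) and Kng1 (0.28) turned to -0.09, -0.22 and -0.10. C8a fell by 0.28 on the log2 scale (adjusted p = 0.032), a call lost under 11 of 21 alternatives. F5 was not called on its brightest probe set (0.015, adjusted p = 0.93), but its second probe set fell from 1200 and 1110 to 671 and 745 (-0.69, adjusted p = 0.0021).

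**Figure D5:**
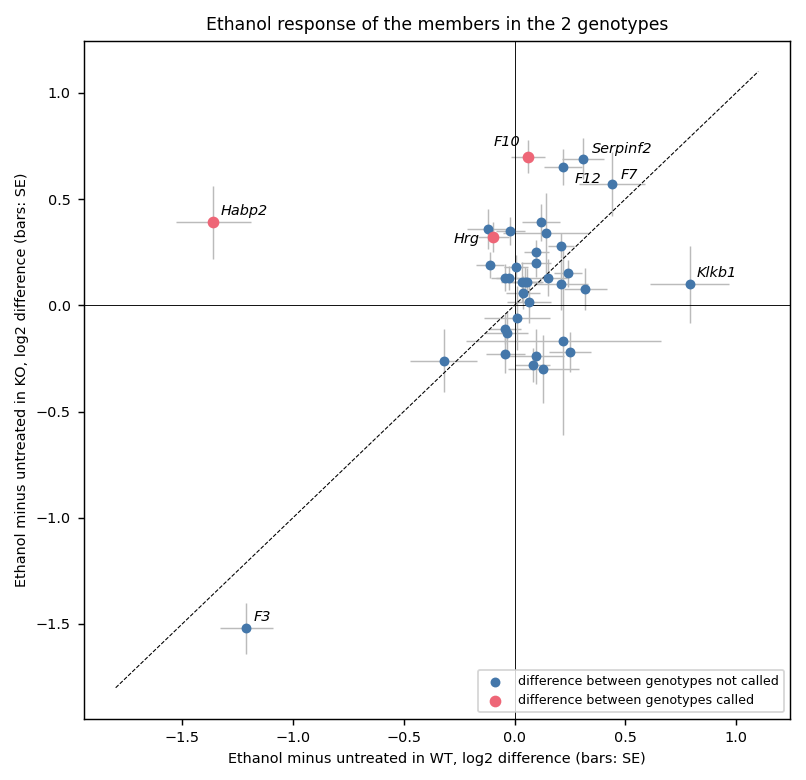
Ethanol minus untreated log2 difference in KO (vertical axis) against that in WT (horizontal axis) for each tested member, with SE bars, and the line of equal response dashed. F3 lies low in both genotypes (-1.21 in WT, -1.52 in KO), Habp2 fell in WT (-1.36) and was 0.39 in KO, and the red points Habp2, F10 and Hrg are those whose responses were called as different between genotypes, Hrg under quantile normalisation but not under trimmed-mean scaling.

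The ethanol effect differed between genotypes at 3 of the 38 members, all with the higher value in KO. Of all genes, 3.23% were called with a higher and 1.82% with a lower effect in KO, and no member was called lower by limma, with 3 lower at an unadjusted p under 0.05 (closest was C9, at -0.47, adjusted p = 0.078, called at -0.62 under trimmed-mean scaling). Habp2 was -1.36 in WT and 0.39 in KO, a difference of 1.76 ± 0.24 (adjusted p = 0.0053). F10 was 0.061 in WT and 0.70 in KO, a difference of 0.64 ± 0.11 (adjusted p = 0.013), which its 2 dimmer probe sets did not show (0.064 and -0.15). Hrg was -0.095 in WT and 0.32 in KO, a difference of 0.42 ± 0.10 (adjusted p = 0.045), which trimmed-mean scaling reduced to 0.19 (0.42). Leaving out 1 array ended the calls of F10 and Hrg (adjusted p between 0.058 and 0.19) and never that of Habp2. For Habp2 the KO arrays were 216 and 242 without and 321 and 289 with ethanol, and ethanol KO was above ethanol WT (log2 difference 1.77 ± 0.17, adjusted p = 8e-05). Its dimmer probe set had the other sign in both comparisons (-0.61 for the difference between genotypes, adjusted p = 0.41, and -0.39 for KO against WT with ethanol, 0.35). In the mean over each gene's probe sets the differences between genotypes were 0.57 for Habp2 and 0.18 for F10 and were not called (adjusted p = 0.16 and 0.48).

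The labelling conflict bears on every ethanol result. With both B ethanol arrays taken as untreated, the members' calls for ethanol in WT, in KO and in their difference were lost. Each ethanol group then kept 1 array, and the B arrays, if treated, would widen the spread of the untreated groups. The loss of calls under that reading therefore cannot show whether the members respond to ethanol. On the B ethanol arrays F3 was 471 in WT and 808 in KO, and on the A ethanol arrays 492 and 619. Untreated WT lay at 1070 to 1200 and untreated KO at 2060 and 2070. F3 is 1 gene, chosen from calls that counted the B arrays as ethanol-treated, so it cannot decide how they were treated. The ratio of 3′ to 5′ signal of the control transcript Pcx, which rises as RNA is degraded or copied incompletely, was 26.7 and 44.5 in ethanol WT against 4.91 to 16.8 on the other 6 arrays. The same ratio for Gapdh was 0.977 and 0.928 in ethanol WT against 0.771 to 0.839 on the other 6 arrays. The ethanol WT arrays also enter KO against WT with ethanol and the difference between the genotypes' responses. On the ethanol KO arrays the Pcx ratio was 4.91 and 5.45. The part of these ratios in the WT ethanol results and in those 2 comparisons was not tested.

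Genes of the same pathways outside the member list were counted from lists of other complement, coagulation and plasma protein genes. Of 15 other complement genes tested, none was called higher by limma (1 at an unadjusted p under 0.05) and 5 were lower (33.3%) in untreated KO under quantile normalisation, and 1 and 4 under trimmed-mean scaling. Of all genes, 15.1% were called higher and 21.2% lower there, and 16.1% and 21.8% under trimmed-mean scaling. Cpn2, a carboxypeptidase N subunit that protects the enzyme which trims anaphylatoxins, was 353 and 306 in WT against 107 and 74.9 in KO without ethanol, and 621 and 637 in WT against 168 and 194 in KO with it. It was lower in KO at both doses (-1.71 ± 0.17 each, adjusted p = 9.6e-05) and rose by 0.90 with ethanol in both genotypes (adjusted p = 0.016 in WT and 0.0061 in KO). Cfhr2, a factor H related protein, was lower by -1.03 and -1.35. Cd59a, which blocks the terminal pore, was lower by -0.89 and -0.84, and C1ra, a C1r protease, by -0.33 and -0.37.

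Of 22 other coagulation genes, 5 were higher and 5 lower in untreated KO. This is 22.7% each way, where 15.1% of all genes were called higher and 21.2% lower. Tfpi2, a protease inhibitor related to tissue factor pathway inhibitor, was 876 and 845 in untreated WT and 3150 and 2960 in untreated KO (1.81 ± 0.11, adjusted p = 7e-06), and fell with ethanol in KO to 1330 and 1670 (-1.03, adjusted p = 0.00066). Serpina10, the protein Z dependent inhibitor of factor X, was lower by -0.97 and Vkorc1, the enzyme that recycles vitamin K for the carboxylation of clotting factors, by -0.96 (2410 and 2300 against 1240 and 1170). With ethanol Serpina10 rose in both genotypes, by 0.58 in WT and 0.78 in KO (adjusted p = 0.002 and 0.00034), as did Gas6, a vitamin K dependent protein related to protein S (0.76 and 0.60, adjusted p = 0.0046 and 0.0052), while Vkorc1 rose by 0.78 in KO. Plat, tissue plasminogen activator, was higher in untreated KO by 0.77, and Plaur, the urokinase receptor, fell with ethanol in WT by 0.79 on the log2 scale (adjusted p = 0.0015). Of 34 other plasma proteins, 12 were higher (35.3%) and 7 lower (20.6%) in untreated KO, against 15.1% and 21.2% of all genes. Under trimmed-mean scaling 23 were higher and 3 lower, where 16.1% and 21.8% of all genes were called. The calls under quantile normalisation include the acute phase proteins Orm2 (1.86) and Crp (1.16), both higher, and Ahsg (-1.34) and the apolipoprotein Apoc2 (-1.36), both lower.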

How the data were processed

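RNA of 8 samples was hybridised to 1-colour Affymetrix arrays, and the files deposited by the authors hold 1 linear intensity for each probe set and array. How the authors summarised and scaled them, and against which build, is not given in the sources used here. On ethanol WT B, 5410 of the deposited intensities (12%) were unusable and their probe sets were left out, which left 39627; of the members' probe sets this touched 1 dimmer C2 probe set. Intensities were quantile normalised here, taken as log2(intensity + 16), and restricted to the brighter 50% (mean log2 of at least 5.4). No deposited log2 values were used.

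One limma model (version 3.58.1, R 4.3.3) held the means of the 4 groups over the 8 arrays, with a variance prior that followed intensity (4 residual and 5.43 prior degrees of freedom). Benjamini-Hochberg adjustment was done separately for the 5 contrasts. An exact permutation test of 2 against 2 arrays cannot give a p below 0.333, and the number of arrays limits the precision. The members and gene lists were chosen with earlier results of these data known, so no p was adjusted over a list alone and no list was tested as a set. Members are named by role, the values of each array are given for called members with the largest differences, and up to 4 called genes with the smallest adjusted p are named from each other list and contrast. Sequences are from RefSeq (GRCm38.p6). Alternatives varied the offset, filter, trend, scaling, probe set choice, arrays and labels.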

Additional observations from a re-analysis of the deposited data

Results flagged for a closer look

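These results are given again because the ethanol effect was called as different between genotypes by the test of that difference in limma. Habp2 had an ethanol effect in KO minus that in WT of 1.76 (adjusted p = 0.0053), F10 of 0.64 (0.013) and Hrg of 0.42 (0.045). The dimmer probe set of F5 had a difference of -0.67 (adjusted p = 0.032), with 504 and 491 in WT against 1200 and 1110 in KO without ethanol, and 520 and 459 in WT against 671 and 745 in KO with it, whereas the brightest F5 probe set had -0.049 (adjusted p = 0.87). The dimmer probe set of Habp2 had -0.61 (adjusted p = 0.41) and those of F10 had 0.064 and -0.15 (0.93 and 0.75), and the calls of Habp2 and F10 were lost in the mean over each gene's probe sets (0.57 and 0.18).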

How the results depend on the processing

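Of the 23 members called in untreated KO, 6 kept the call under all 21 alternatives, and of the 21 called in KO with ethanol 2 did. Of the 3 and 13 called for ethanol in WT and in KO none did. None of the 3 called for their difference kept the call under all 20 alternatives run for it. For F3 in both genotypes and for F10, F12 and Serpinf2 in KO the ethanol call was lost only with both B ethanol arrays taken as untreated. Trimmed-mean scaling reversed the untreated KO difference of F2 (0.15), Fga (0.65), Fgb (0.56), Plg (0.031), Serpinc1 (0.14), Kng1 (0.41) and Vtn (0.026) and the ethanol difference in KO of F2 (-0.09), Serpinc1 (-0.22) and Kng1 (-0.1), and the mean of a gene's probe sets reversed that of F5 (-0.34). The cause of these reversals was not tested.

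The number of members called in untreated KO was 13 without the intensity trend and 13 with both B ethanol arrays taken as untreated. In KO against WT with ethanol it was 13 with no filter, 12 without the trend, 12 with the compared groups alone and 3 with those arrays taken as untreated. For ethanol in WT it was 5 in the top 30% of probe sets, 6 with the groups alone, 5 with the mean of a gene's probe sets and 0 with those arrays taken as untreated. For ethanol in KO it was 4 without the trend, 8 with the groups alone and 0 with those arrays taken as untreated, and for the difference of the ethanol effects 6 in the top 30%, 1 without the trend, 9 with the B ethanol arrays left out and 0 with them counted as untreated. Leaving out 1 array at a time gave 13 (without untreated WT B) to 25 (without ethanol KO A), 9 (without ethanol WT B) to 23 (without ethanol KO B), 2 (without untreated WT A) to 7 (without ethanol KO A), 4 (without untreated KO A) to 18 and 1 to 12 (both highest without ethanol KO B), in the order of these 5 comparisons; a lone array was then assumed to vary like the other groups. A replicate block by A and B gave 22, 20, 3, 12 and 4. The labels do not say what A and B share, and the A minus B differences of the groups correlated across probe sets at 0.0218 to 0.302. A term for the ratio of the bioC and bioB spike-in controls, split at 2, gave 22, 23, 3, 12 and 4. Where the B ethanol arrays were left out or taken as untreated, each ethanol group held 1 array. All these counts stand without the share of all genes called under the same setting. They therefore cannot show whether a change was particular to the members.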
